A study of Sus scrofa with 3 samples.

Results

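MiR-126 was followed through its 2 mature porcine products, ssc-miR-126-5p and ssc-miR-126-3p, which were taken as every porcine mature miRNA named miR-126 in the lists of known miRNAs. They were 2 of 276 porcine mature miRNAs. Small RNA was sequenced from the psoas major, a muscle of the loin, of castrated male Landrace × Large White × Duroc hybrid pigs at an age of 63, 98 or 161 d. Each library pooled the RNA of 6 pigs, and age is the only difference that the labels give between the 3 libraries, with no treatment and no altered gene. The paper states that the diet changed with body weight, with less protein and lysine at heavier stages. Age and diet stage therefore cannot be told apart. Since each age had 1 library, every interval and p-value covers counting error within libraries, measures no spread between pigs, and compares libraries, not ages. No unique molecular identifiers were used, so that amplified copies were counted as reads.

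MiR-126 is enriched in the endothelium, the cell layer that lines blood vessels, and it lies in an intron of EGFL7, a gene of endothelial cells. In the endothelium, miR-126-3p is known to repress SPRED1 and PIK3R2, inhibitors of the signalling that follows vascular endothelial growth factor, and the adhesion molecule VCAM1. MiR-126-5p, cut from the other arm of the same hairpin, is known to repress DLK1 in endothelial cells. In skeletal muscle the endothelium is mostly that of the capillaries between the fibres. The files hold small RNAs only, so the endothelial origin is background and could not be checked against endothelial genes. In RNA of whole muscle, fewer cells of a type and less RNA per cell cannot be told apart.

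The sequences are shown because the arms differed in how their reads were made up. They are those of the representative reads in the files, written 5′ to 3′ as DNA, with the seed (bases 2 to 8, which pair with target mRNAs) in capitals:
miR-126-5p, all 3 libraries: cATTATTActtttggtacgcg
miR-126-3p, 63 d: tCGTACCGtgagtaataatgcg
miR-126-3p, 98 and 161 d: tCGTACCGtgagtaataatgc
The hairpin that holds both arms, with the arms in capitals, was:
hairpin: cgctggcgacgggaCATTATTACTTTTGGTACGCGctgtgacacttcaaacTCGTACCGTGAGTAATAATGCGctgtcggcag

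Both arms came from 1 hairpin of 83 bases on the plus strand of chromosome 1, at chr1:313734663-313734745. The files do not name the build of these coordinates. MiR-126-5p was at chr1:313734677-313734697 and the 22-base miR-126-3p at chr1:313734714-313734735. In the files' predicted fold, 17 bases of the 5p arm paired with the 3p arm, 16 bases lay between the arms, and the free energy was -37.8 kcal/mol. In RefSeq's annotation of the assembly Sscrofa11.1, the gene MIR126 lies within the span of EGFL7. The seeds of the arms, ATTATTA and CGTACCG, were different, and no other porcine mature miRNA in the libraries had either of them.

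The listed reads summed to 1464699 (63 d), 2418187 (98 d) and 2242716 (161 d), where a miRNA listed at several hairpins entered at each of them. With 1 hairpin per miRNA the sums were 968834, 1715384 and 1549030. MiR-126-5p was read 5347 times in the 63 d library, 16625 times in the 98 d library and 10727 times in the 161 d library. MiR-126-3p was read 3197, 6998 and 4432 times. Both arms were thus counted far above the limit that a count of 0 allows (3 counts), so that depth did not limit their detection. The counts were scaled to normalised reads by the median of the ratios of 140 porcine miRNAs that had at least 100 counts in every library.

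On that scale miR-126-5p had 7728 normalised reads in the 63 d library, 11839 in the 98 d library and 10219 in the 161 d library. The 98 d library was the highest and the 63 d library the lowest, and the 95% counting intervals of the 3 libraries did not overlap. MiR-126-3p had 4621, 4983 and 4222 normalised reads. Its levels lay much closer together, with the highest at 98 d and the lowest at 161 d. The sum of both arms was 12348, 16822 and 14441 normalised reads in the order of age, which followed the order of the more abundant 5p arm.

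**Figure D1:**
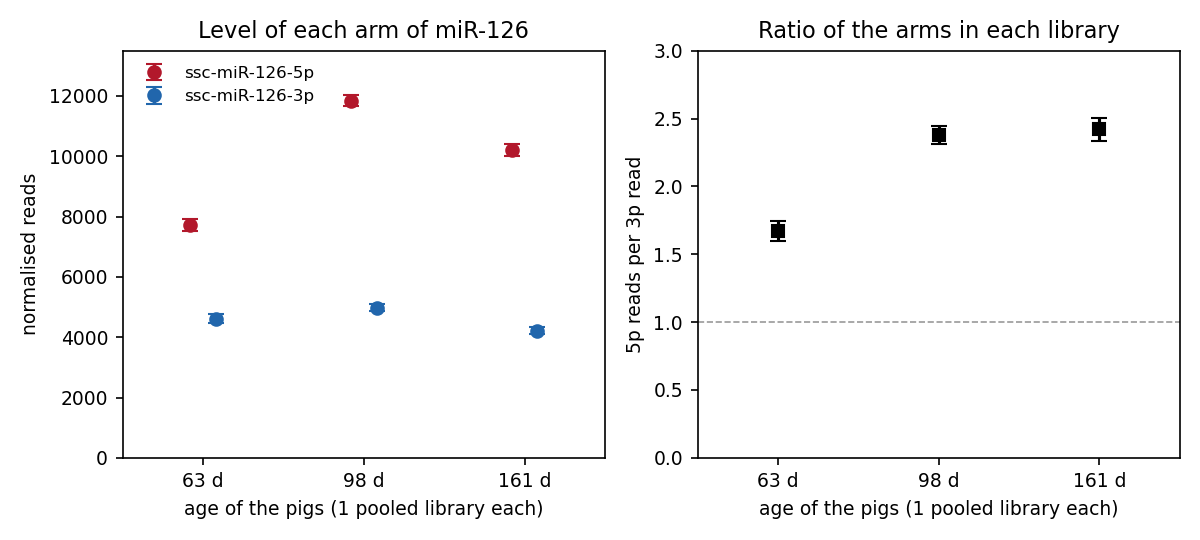
Left, normalised reads (y axis) of miR-126-5p (red) and miR-126-3p (blue) in the 63, 98 and 161 d libraries (x axis), with 95% counting intervals as bars; right, 5p reads per 3p read in the same libraries, with exact 95% intervals and a dashed line at 1. The 5p arm was at 7728, 11839 and 10219 normalised reads, the 3p arm stayed between 4222 and 4983, and the ratio was 1.67 at 63 d against 2.38 and 2.42 later.

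Among the porcine mature miRNAs, miR-126-5p ranked 24 of 261 at 63 d, 17 of 265 at 98 d and 18 of 264 at 161 d. With all hairpins of a miRNA summed, in place of 1, it ranked 28, 23 and 23. Of their reads it made up 0.631% in the 63 d library (0.614 to 0.648, 95% interval after Wilson), 1.08% in the 98 d library (1.07 to 1.10) and 0.780% in the 161 d library (0.766 to 0.795). With all hairpins summed its 63 d share was 0.405%. MiR-126-3p ranked 30, 30 and 35, or 33, 32 and 38 with all hairpins summed. Its share was 0.377% (0.364 to 0.390), 0.457% (0.446 to 0.467) and 0.322% (0.313 to 0.332) in the same order. MiR-126 was therefore among the more abundant miRNAs of this muscle in all 3 libraries, with the 5p arm above the 3p arm in each.

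The places next to miR-126 in this order were not always told apart by counting. At 63 d, miR-126-5p (7728 normalised reads, 95% interval 7521 to 7935) overlapped with miR-30c-5p above it (7916, from 7707 to 8126), but not with miR-10a-5p below it (5712). At 98 d it stood clear of miR-148a-3p above (13295) and of miR-21 below (11205). At 161 d it overlapped with let-7g (10232) and miR-21 (9926), and not with let-7f above (16516) or let-7c below (9693). MiR-126-3p had neighbours whose intervals overlapped its own in every library. These were miR-16 (4855), miR-199a-3p (4556) and miR-125a (4472) at 63 d, and miR-128 (5104) at 98 d. At 161 d they were miR-125a (4287), miR-9 (4259) and miR-125b (4214).

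**Figure D2:**
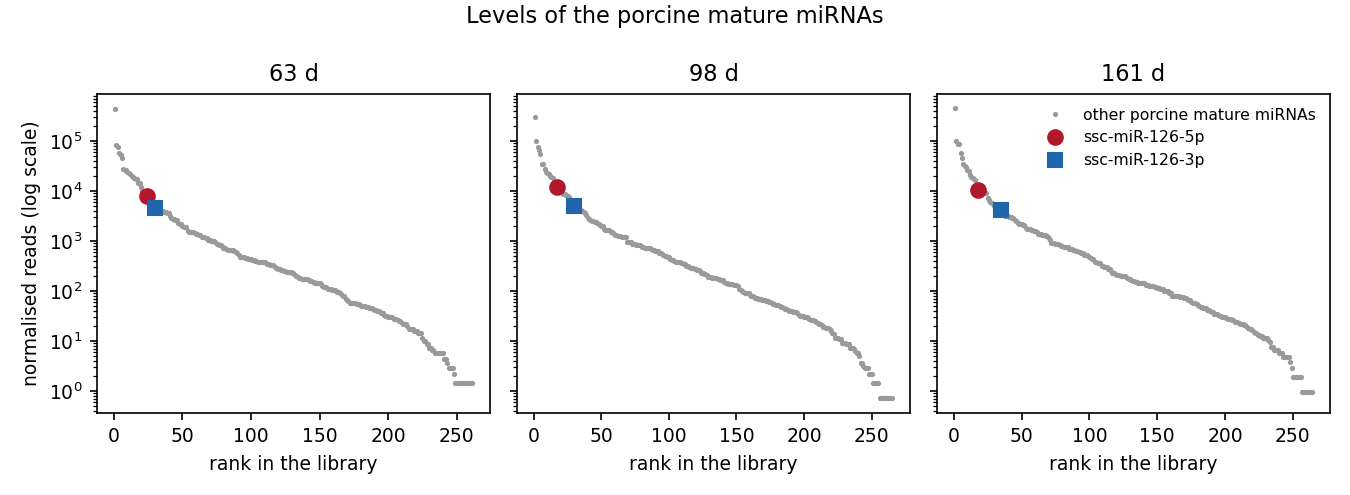
Normalised reads on a log scale (y axis) of each porcine mature miRNA detected in the 63, 98 and 161 d libraries, against its rank in that library (x axis); grey points are the other miRNAs. MiR-126-5p (red circle) ranked 24, 17 and 18 and miR-126-3p (blue square) 30, 30 and 35.

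The comparison of ages addresses which miRNAs changed while the muscle grew. From 63 to 98 d, miR-126-5p was 1.53-fold higher (95% interval 1.49 to 1.58; adjusted p = 1.78e-171, exact conditional binomial test with Benjamini-Hochberg adjustment over all miRNAs of the pair). Of 58 porcine miRNAs with at least 1000 counts in both libraries, 6 had a higher fold. MiR-126-3p differed by 1.08-fold over the same pair (1.03 to 1.12; exact adjusted p = 0.00240), and with reads free of mapping errors by 1.03-fold (0.974 to 1.08; exact adjusted p = 0.576). The 5p arm thus rose by more, and on this scale the difference of the 3p arm was lost without the reads that had errors.

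From 98 to 161 d the arms fell by similar factors. MiR-126-5p was at 0.863 of its 98 d level (0.842 to 0.884; exact adjusted p = 3.01e-31). MiR-126-3p was at 0.847 (0.816 to 0.880; exact adjusted p = 1.01e-16). Over the whole period, from 63 to 161 d, the arms went opposite ways on this scale. MiR-126-5p was 1.32-fold higher (1.28 to 1.37; exact adjusted p = 1.01e-62), whereas miR-126-3p was at 0.914 of its 63 d level (0.873 to 0.957; exact adjusted p = 6.56e-04). With copies of the representative read alone, miR-126-3p was at 0.591 from 63 to 161 d, which compares its 22-base with its 21-base form. The sum of the arms changed 1.36-fold from 63 to 98 d, 0.858-fold from 98 to 161 d and 1.17-fold from 63 to 161 d.

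These changes were small beside the limit used in the study, a fold above 2 or below 0.5 with p below 0.05. Neither arm passed it in any pair. Of all miRNAs tested, 14.2% passed it from 63 to 98 d (214 of 1502), 11.5% from 98 to 161 d (182 of 1588) and 16.4% from 63 to 161 d (229 of 1396). Of the porcine mature miRNAs with at least 100 counts in both libraries, 11.6%, 3.92% and 11.3% did.

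The size of the change depended on what the counts were scaled to. Per 1000000 clean reads, the total that the study counts once adapters, other RNA classes and repeats are removed, miR-126-5p had 1302 reads in the 63 d library, 3609 in the 98 d library and 2098 in the 161 d library, so that its fold from 63 to 98 d became 2.77 and passed the limit, as did 20.8% of all miRNAs tested on that scale. With the authors' own scaling factors the folds of that pair were 1.74 for miR-126-5p and 1.22 for miR-126-3p. MiR-126-3p was at 779, 1519 and 867 reads per 1000000 clean reads, a fold of 1.95 from 63 to 98 d. Its small fall from 63 to 161 d turned into a 1.11-fold rise on this scale, and with the authors' own scaling factors it was 1.04 (0.991 to 1.09; exact adjusted p = 0.333). The direction of the 3p arm over the whole period was thus not fixed by these counts, while the 5p arm was higher at 98 and 161 d than at 63 d under all 10 alternatives tried, at 1.47- to 2.77-fold and 1.24- to 1.61-fold. These alternatives reuse the same 3 libraries and are not all distinct. Fisher's test on the listed reads has the fold of that scaling, and adding 1 to both levels left 1.53 from 63 to 98 d.

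**Figure D3:**
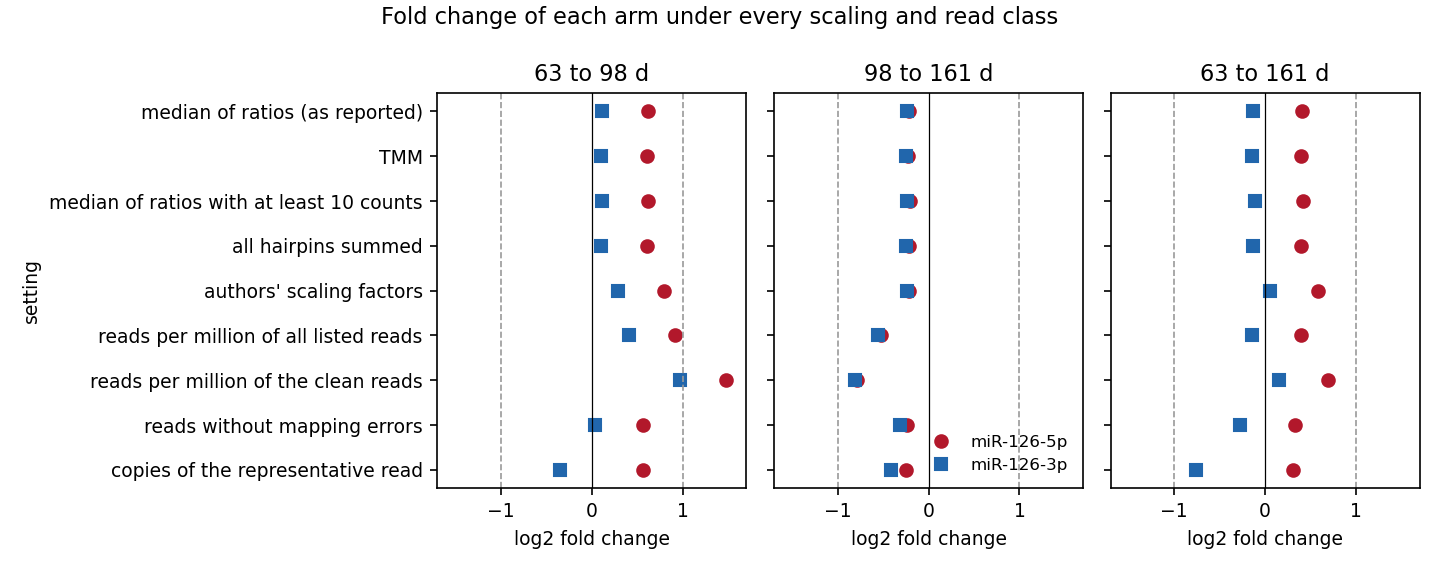
Log2 fold change (x axis) of miR-126-5p (red circles) and miR-126-3p (blue squares) between each pair of libraries, under 9 scalings or read classes (y axis); dashed lines mark the 2-fold limit. The 5p arm lay right of 0 from 63 d to both later ages in every row, whereas the 3p arm lay on both sides of 0 over 63 to 98 d and over 63 to 161 d.

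The ratio of the arms is taken within a library and needs no scaling. There were 1.67 reads of miR-126-5p per read of miR-126-3p at 63 d (exact 95% interval 1.60 to 1.75), against 2.38 in the 98 d library (2.31 to 2.44) and 2.42 in the 161 d library (2.34 to 2.51). The 5p arm was thus 62.6%, 70.4% and 70.8% of the reads of the hairpin. The 63 d library stood apart from the other two, whose intervals overlapped.

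From 63 to 98 d the ratio rose 1.42-fold (1.35 to 1.496; adjusted p = 1.01e-38, Fisher's exact test with adjustment over 29 hairpins with at least 100 counts in each arm and library). Between 98 and 161 d its change was 1.02-fold (0.974 to 1.07; exact adjusted p = 0.527). That interval lay below the earlier change, but it covers counting error only. With copies of the representative reads alone the change from 98 to 161 d was 1.12-fold (1.02 to 1.23). From 63 to 161 d the ratio over all reads rose 1.45-fold (1.37 to 1.53; exact adjusted p = 6.33e-37).

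A change of arm ratio was common in these libraries. It was found in 69.0% of the 29 hairpins from 63 to 98 d, in 58.6% from 98 to 161 d and in 55.2% from 63 to 161 d. With at least 20 counts per arm these shares were 54.8%, 45.2% and 38.7% of 62 hairpins. Some of the 29 hairpins are copies that share reads, such as those of miR-9, miR-133a, miR-181a and miR-199a. With 1 hairpin kept per family, a choice made after the data were seen, the shares were 79.2%, 58.3% and 58.3% of 24 hairpins. The change of miR-126 was near the middle of them from 63 to 98 d, where 12 hairpins had a larger absolute change, and the median absolute log2 change was 0.44 against 0.51 for miR-126. From 98 to 161 d, 27 of the hairpins had a larger absolute change than miR-126, so that its arm ratio was among the steadiest in that pair. The hairpins nearest to it in the change from 63 to 161 d (1.45-fold) were mir-151 (1.44) and mir-199b (1.42) below and mir-532 (1.54) and mir-4332 (1.64) above.

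**Figure D4:**
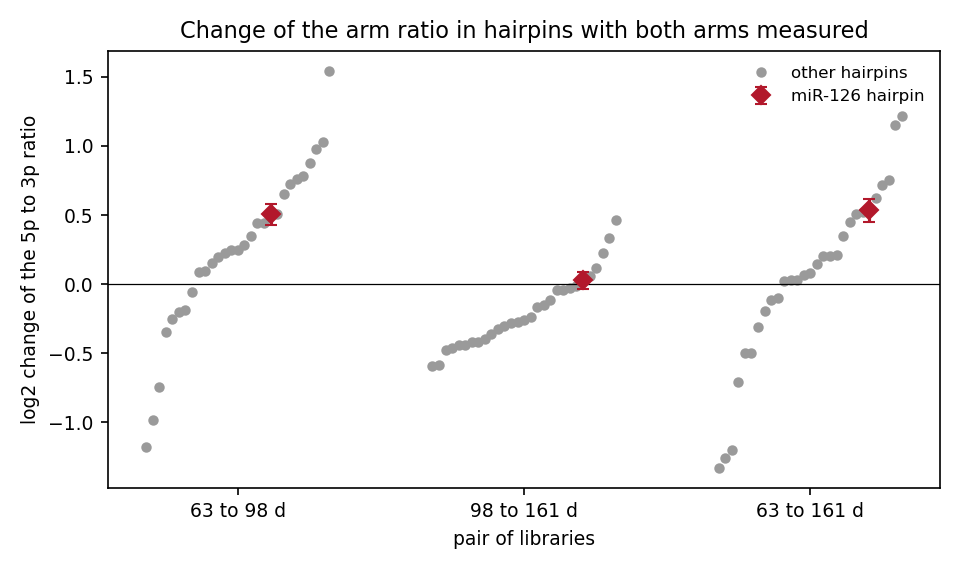
Log2 change of the 5p to 3p ratio (y axis) in each of 29 hairpins between the libraries of each pair (x axis, hairpins sorted by their change within a pair); the red diamond with its 95% interval is miR-126. It lay at 0.51 from 63 to 98 d, 0.03 from 98 to 161 d and 0.53 from 63 to 161 d, within the range of the other hairpins (grey).

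The arms differed in their isoforms, the reads of slightly different ends or bases that come from the same arm. The representative read of miR-126-5p was the known 21-base sequence shown above in all 3 libraries. It made up 80.2%, 78.3% and 78.3% of the reads of its arm in the order of age. Reads with mapping errors were 12.9%, 15.3% and 15.5% of the arm. MiR-126-5p was thus mostly of 1 sequence, and its share of reads with errors was near the median of the porcine miRNAs with at least 1000 counts (13.7%, 13.7% and 14.3%).

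MiR-126-3p was spread over many reads. At 63 d its representative read was the known 22-base sequence, with 853 copies, or 26.7% of the arm. At 98 and 161 d the representative read was 1 base shorter at its 3′ end, with 1381 copies (19.7%) and 796 copies (17.96%). The seed was the same in both forms, since they begin at the same base. Reads with mapping errors made up 34.7%, 37.1% and 39.4% of the 3p arm in the order of age. Only 7 of 58, 11 of 85 and 8 of 71 porcine miRNAs with at least 1000 counts had a higher share in the respective libraries.

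In the 3p arm the share of reads with errors was higher in the later library of each pair. It differed by 2.42 percentage points from 63 to 98 d (adjusted p = 0.0224, Fisher's exact test over 6 comparisons) and by 2.31 points from 98 to 161 d (exact adjusted p = 0.0201). In the 5p arm it rose by 2.37 points from 63 to 98 d (exact adjusted p = 4.88e-05), and differed by 0.216 points from 98 to 161 d (exact adjusted p = 0.631). The change of this share in other miRNAs between the same libraries was not tested.

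The class of reads counted set the level of the arm ratio. With reads free of mapping errors there were 2.23, 3.20 and 3.37 5p reads per 3p read at 63, 98 and 161 d. With copies of the representative reads alone the ratio was 5.03, 9.43 and 10.6. Here the 3p read was the 22-base form at 63 d and the 21-base form at 98 and 161 d. In each class the 63 d library had the lowest ratio, but for representative reads this compares different 3p forms.

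**Figure D5:**
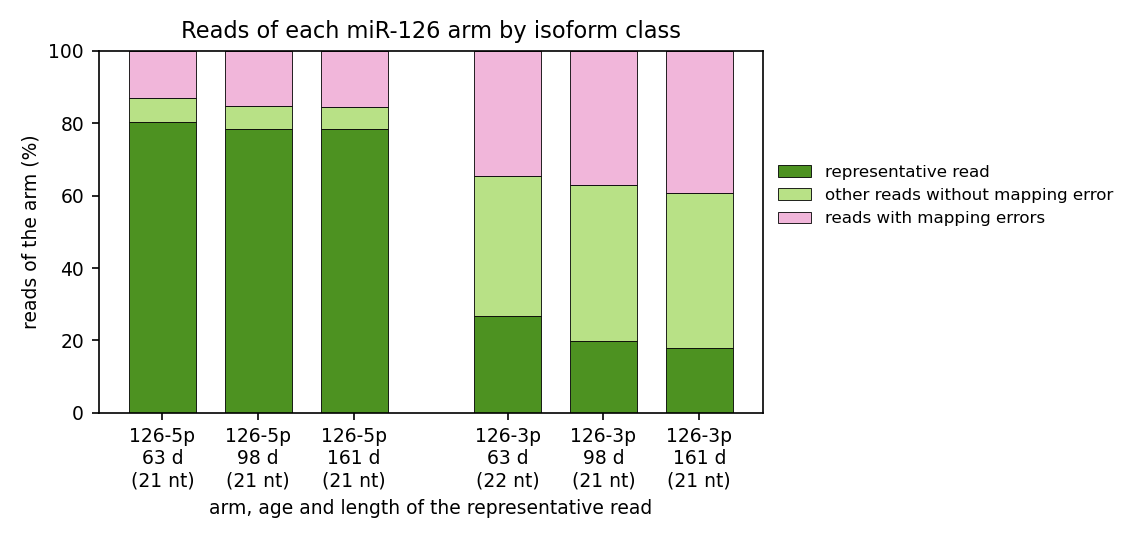
Reads of each miR-126 arm in percent (y axis) in the 63, 98 and 161 d libraries (x axis), split into copies of the representative read, other reads without mapping errors and reads with mapping errors. The representative read made up 78.3 to 80.2% of the 5p arm and 17.96 to 26.7% of the 3p arm.

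A few reads carried a miR-126 name of another species, and not all of them are placed by the files at this locus. A mouse name on the opposite strand, mmu-miR-126b-3p, had 2 reads in each library. A platypus name for the 5p arm with 1 more base at its 5′ end, oan-miR-126-5p, had 1, 1 and 2 reads, and a rat name, rno-mir-126b-p5, had 1 read at 161 d. None of these was added to the porcine arms.

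The miRNAs whose pattern over the 3 libraries was most like that of miR-126-5p were chosen from 55 porcine miRNAs with at least 1000 counts in every library, by the distance between log2 levels centred on their mean. They were miR-451 (distance 0.054), a miRNA of red blood cells, miR-30b-5p (0.10) and miR-199b-5p (0.12). MiR-451 had 1593, 2353 and 2138 normalised reads at 63, 98 and 161 d. The nearest to miR-126-3p were miR-98 (0.094), miR-21 (0.10) and miR-30c-5p (0.11). The distance between the arms of miR-126 was 0.42, and 19 of the candidates were closer to the 5p arm than the 3p arm was. With 3 points each, these distances are a description only.

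Markers of other cell types varied between the same libraries. The red blood cell miRNAs miR-144 and miR-451, both detected in every library, summed to 1709.7, 2568 and 2284 normalised reads in the order of age. This sum, like that of miR-126, was lowest at 63 d and highest at 98 d, and miR-126 had 7.22, 6.55 and 6.32 reads per red blood cell read. The white blood cell miRNAs miR-142-3p, miR-142-5p and miR-150 summed to 2319.6, 2562 and 2105 normalised reads, and miR-126 had 5.32, 6.57 and 6.86 reads per read of them. They did not move together, since miR-142-5p was lowest at 63 d (1182, 1630.0 and 1399) and miR-150 was highest there (981, 749.8 and 614). MiR-223, the other white blood cell marker, had no porcine entry in the lists used here. The miR-143 and miR-145 arms (4 of 4 detected), which are abundant in the smooth muscle of vessel walls, summed to 19930.2, 20447 and 58269.9, mostly through miR-143-3p (18874, 19719 and 56630). Each of the 4 was highest at 161 d, where miR-126 was not. From 63 to 98 d they did not move together. MiR-145-5p (983, 641 and 1470) and miR-143-5p (27.5, 17.8 and 68.6) were lowest at 98 d, whereas miR-143-3p and miR-145-3p (46.2, 69.1 and 101) were lowest at 63 d. The 8 arms of muscle fibre miRNAs summed to 476903, 366671 and 507882, mostly through miR-133a-3p (439625, 299185 and 452081). Some other fibre miRNAs were highest at 98 d, as miR-1 (26199.7, 54488 and 45419.6) and miR-206 (4016, 4679 and 2822) were. So were miR-208b, miR-499-5p and miR-499-3p. MiR-499-3p had only 2.89, 6.41 and 4.76 normalised reads, and at 63 d it lay below the limit of 3 counts (4.34 normalised reads). In contrast, miR-133b (2803, 2778 and 2991) and miR-133a-5p (936, 677 and 683) were lowest at 98 d, as miR-133a-3p was. Per fibre read there were 0.0259, 0.0459 and 0.0284 reads of miR-126. The part of these cell types in the levels of miR-126 was not tested.

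A list of 27 other porcine miRNAs known from endothelium and vessel growth was set beside miR-126. None of them rose past the limit in any pair, with 4.46%, 5.79% and 5.44% of all miRNAs passing it upwards from 63 to 98 d, 98 to 161 d and 63 to 161 d. From 63 to 98 d 2 of the 27 fell past it, from 98 to 161 d 1 did, and from 63 to 161 d 4 did, where 9.79%, 5.67% and 11.0% of all miRNAs fell. The median log2 fold of the list was 0.12, 0.08 and 0.06 in these pairs, against -0.18, 0.07 and -0.17 over all miRNAs tested with counts in both libraries and -0.02, 0.01 and 0.00 over the porcine ones. The porcine medians lie near 0 largely through the scaling, which was set on 140 porcine miRNAs.

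The list held 7 arms of the miR-17-92 cluster, which is transcribed as a single precursor. Of these, miR-19a, miR-19b and miR-92a fell past the limit from 63 to 161 d, and the other 4 passed it in no pair. MiR-92a, known to restrain vessel growth, had 21609.6, 8765 and 9337 normalised reads in the order of age and was at 0.406 of its 63 d level at 98 d (0.396 to 0.415). MiR-19a had 175, 142.4 and 72.4 normalised reads and fell to 0.414 from 63 to 161 d. MiR-19b had 344, 265 and 143.9 and fell to 0.418. All 3 were lower at 161 d than at 63 d, whereas miR-126-5p was higher. MiR-296-3p had 445, 129.6 and 122 normalised reads and fell to 0.291 from 63 to 98 d. MiR-10a-3p, with only 11, 37 and 12 counts, was at 0.434 of its 98 d level at 161 d (0.206 to 0.851; exact adjusted p = 0.0545). Per 1000000 clean reads, 12 of the 27 members passed the limit upwards and 0 downwards from 63 to 98 d. Of all 1502 miRNAs tested on that scale, 244 were higher and 69 lower. The direction over that pair thus depended on the scaling, for the list and for all miRNAs. From 63 to 161 d on the same scale, miR-19a was at 0.504, miR-19b at 0.509 and miR-92a at 0.526 of the 63 d level, and miR-296-3p (0.334) was the 1 member that stayed past the lower limit. Going the other way, miR-10a-5p (2.01), miR-218b (2.10) and miR-31 (2.16) passed the upper limit. Of all 1396 miRNAs tested in that pair, 107 were higher and 117 lower.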

How the data were processed

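Small RNA libraries of porcine psoas major muscle, 1 per age from pooled RNA of 6 pigs, were grouped by the age in the labels. The authors made the deposited files with ACGT101-miR v4.2 against miRBase 20.0; the genome build is not given in the sources used here. The deposited files give counts (whole copies of the representative read) and, as made by the authors' pipeline, expected counts of all isoforms of an arm, with and without mapping errors, neither normalised. Expected counts were used, rounded to whole numbers for tests. Where several hairpins shared a miRNA, the reads at 1 of them were used.

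Median-of-ratios scaling, exact conditional binomial tests, Fisher's exact tests, Clopper-Pearson and Wilson 95% intervals and Benjamini-Hochberg adjustment were run in Python 3.11.15 with scipy 1.17.1, and tested on simulated data; edgeR 4.0.16 gave TMM factors for an alternative. Further alternatives were other scalings, read classes, minimum counts and tests. The degradome data were not used here. Named miRNAs were both arms, the 3 most alike per arm, 2 rank neighbours on each side, called members of the endothelial list, the nearest hairpins in arm ratio change, and cell type markers. The members and lists were chosen with earlier results of these data known.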

Additional observations from a re-analysis of the deposited data

How the results depend on the processing

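Of 162 comparisons of a result with an alternative, 137 were counted as unchanged. Tested values among them kept direction and side of the limit, and values of miR-126 and of the list without a test kept size. Background counts and shares among them did change in size. From 63 to 98 d, 214 miRNAs were called, against 313 with clean reads. The share of hairpins with a changed arm ratio from 63 to 161 d was 55.2%, against 38.7% with at least 20 counts per arm. The 137 include 12 that undo the rounding, which cannot differ since the values of miR-126 are whole. Per 1000000 clean reads, the folds from 63 to 98 d passed the limit for miR-126-5p (2.77) and for the sum of the arms (2.46). MiR-126-3p from 63 to 161 d turned to 1.11 on that scale and to 1.04 with the authors' factors; from 63 to 98 d it turned to 0.786 with copies of the representative read, which compares a 22-base with a 21-base form. The ratio of 5p to 3p was 2.23, 3.20 and 3.37 without error reads and 5.03, 9.43 and 10.6 with representative reads at 63, 98 and 161 d. With the latter, the 63 d value rests on the 22-base 3p form and the later values on the 21-base form. With representative reads its change from 98 to 161 d became 1.12-fold and passed the threshold. With every hairpin of a miRNA summed, the share was 0.405%, 0.755% and 0.524% for miR-126-5p and 0.242%, 0.318% and 0.217% for miR-126-3p, since the denominator grew. In the list of 27, per 1000000 listed reads 2 were higher from 63 to 98 d and 3 lower from 98 to 161 d. Per 1000000 clean reads 12 were higher and 0 lower, 4 were lower, and 3 were higher and 1 lower, in the 3 pairs from 63 to 98, 98 to 161 and 63 to 161 d.

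Relative to the scaling used, clean reads shifted all log2 folds by 0.85, -0.57 and 0.28 in these pairs, listed reads by 0.30, -0.31 and -0.01, and the authors' factors by 0.18, 0.00 and 0.18. From 63 to 98 d, 67 miRNAs were called higher and 147 lower, against 244 and 69 with clean reads and 102 and 91 with listed reads. From 98 to 161 d it was 92 and 90, against 43 and 182 with clean and 60 and 124 with listed reads. From 63 to 161 d it was 76 and 153, against 107 and 117 with clean reads. No paired analysis was possible because each age has 1 library, and no replicate could be left out. Other causes were not tested.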
